A study of Mus musculus with 6 samples.

Results

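Collagen genes were examined by class in mouse lenses with a conditional deletion of Prox1, a transcription factor that lens fibre cells need to form, and in wild type lenses. Members were taken by name alone, as every feature called Col, a type number, the letter a and a chain number, which gave 44 genes of the 41128 features listed. They were sorted by type number into 9 genes of fibrillar types (I, II, III, V and XI), 6 genes of the basement membrane type IV, 5 genes of the fibril-associated types IX, XII and XIV (FACIT), 4 genes of the transmembrane types XIII, XVII, XXIII and XXV, 2 genes of types XV and XVIII (multiplexins), and 18 genes of other types. The study compared RNA from lenses of stage E13.5, counted in days of embryonic life. Polyadenylated RNA was sequenced as single-end reads of 51 bases that keep no record of the strand.

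The Prox1 cKO group held 3 libraries from lenses with floxed Prox1 alleles (Prox1 f/f) and the transgene MLR10Cre, in which a modified alpha A-crystallin promoter drives Cre recombinase in lens epithelium and lens fibres. The wild type group held 3 libraries from lenses with neither modification, and the labels give the strain C57Bl/6 for both groups. Each library came from 1 pool of 30 lenses and is labelled a biological replicate. Nothing states whether embryos of 1 litter entered several pools, so the p-values measure the spread between pools. No library analysed here carried Cre alone or the floxed alleles alone, so an effect of either cannot be told apart from loss of Prox1.

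Collagens are extracellular proteins whose chains wind around each other into a rope-like helix. Fibrillar collagens make the tensile fibrils of sclera, cornea and cartilage, and FACIT collagens sit on those fibrils. Type IV collagen forms the sheet-like network of basement membranes, including the thick lens capsule that the lens cells themselves secrete, while transmembrane collagens span the plasma membrane of the cell that makes them.

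The sequences below show the overlapping starts of the most abundant collagen genes and the promoters of 3 genes whose groups were far apart. They come from RefSeq on GRCm38.p6, which matched 35 of the 44 members with 38 start sites. Type IV genes lie in pairs that start back to back, and the start of Col4a2 on the plus strand (gene chr8:11312805-11449287) lies 21 bases from the start of Col4a1 on the minus strand (gene chr8:11198423-11312826). The 30 bases around both starts, at chr8:11312801-11312830 on the plus strand, have in capitals the 22 bases that both genes share. Both genes are transcribed through this stretch, in opposite directions.

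Col4a2 and Col4a1: cggcAGTGCGCGGGCGGCGTCTCCAAgggg

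The 250 bases before the start of Col13a1 (chr10:61979109-61979358, minus strand), Col23a1 (chr11:51289670-51289919, plus strand) and Col9a2 (chr4:121039316-121039565, plus strand) follow. Capitals mark every match, on either strand, to the 4 motifs searched, which are spelled out after the sequences.

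Col13a1: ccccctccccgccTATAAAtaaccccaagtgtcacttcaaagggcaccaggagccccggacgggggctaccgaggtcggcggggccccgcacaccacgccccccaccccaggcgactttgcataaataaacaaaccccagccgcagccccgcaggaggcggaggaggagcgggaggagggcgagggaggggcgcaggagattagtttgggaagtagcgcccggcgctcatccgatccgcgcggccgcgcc

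Col23a1: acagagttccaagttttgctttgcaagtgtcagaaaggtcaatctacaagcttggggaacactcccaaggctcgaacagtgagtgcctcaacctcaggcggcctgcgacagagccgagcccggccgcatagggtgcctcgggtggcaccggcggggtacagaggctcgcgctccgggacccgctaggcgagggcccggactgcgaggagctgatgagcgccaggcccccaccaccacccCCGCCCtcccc

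Col9a2: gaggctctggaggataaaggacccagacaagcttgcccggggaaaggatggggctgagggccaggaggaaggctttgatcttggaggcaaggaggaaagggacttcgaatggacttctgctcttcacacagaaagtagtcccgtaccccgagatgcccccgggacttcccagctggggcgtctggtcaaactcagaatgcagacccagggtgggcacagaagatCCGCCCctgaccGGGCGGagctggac

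In the 250 bases before the start, the GC box GGGCGG occurred in 57.9% of the 38 collagen windows and in 32.7% of all 32851 RefSeq windows of the same length. The CCAAT box, with those letters, occurred in 34.2% of collagen windows and 33.8% of all windows. The TATA box was searched as TATAAA and occurred in 13.2% of collagen windows and 12.4% of all windows. The core of SOX sites, ACAAAG, occurred in 10.53% of collagen windows and 16.5% of all windows. Both strands were searched. These are counts of letters and do not show binding.

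The libraries held 9082219 to 28391662 counts in the Prox1 cKO group and 20731491 to 21061582 counts in the wild type group. Levels are given as CPM, the count relative to a TMM-scaled library size, in the order of libraries 1, 2 and 3. Prox1, the targeted gene, stood at 651, 728 and 707 CPM in the Prox1 cKO libraries, against 922, 1215 and 1246 CPM in the wild type libraries. Every Prox1 cKO library lay below every wild type library (log2 -0.70, SE 0.141, edgeR adjusted p = 0.00740), and counts over the whole gene do not show which part of it was floxed. Of 12 lens markers, 10 fell and 1, Pax6, rose, where 16.8% of all genes fell and 15.9% rose. The summed level of the lens markers was 21819.6 to 24079 CPM in Prox1 cKO libraries and 95689 to 177457 CPM in wild type libraries, with Cryaa the most abundant of them in all 6. Cryaa, an alpha crystallin, ranged from 15001 to 16685 CPM in Prox1 cKO libraries and from 65379 to 116747 CPM in wild type libraries. Knockout library 3 stood apart in many collagen genes, so results that change without it are given both ways.

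Across the class, collagen RNA moved in opposite directions by type: 22 of the 39 members with enough counts to test rose in the Prox1 cKO lens and 4 fell, and all 4 that fell encode type IV chains. A gene was called changed at an adjusted p under 0.05 in the edgeR quasi-likelihood test over all 14271 genes tested. That test called 32.6% of all genes, with 15.9% of all genes higher and 16.8% lower, against 56.4% of the tested collagens higher and 10.3% lower. Of the 22 that rose, 20 did so at least 2-fold (5.86% of all genes), and none of the 4 that fell did (5.11% of all genes). All 3 Prox1 cKO libraries lay above all wild type libraries in 23 tested collagens (24.4% of all genes) and below them in 5 (25.7% of all genes), the 4 that fell and Col22a1. DESeq2 called 22 collagens higher and 4 lower (16.2% and 17.7% of all genes), and limma-voom 15 and 4 (15.6% and 16.7% of all genes). The median log2 difference was 1.29 over the 39 collagens and 0.04 over all genes. When knockout library 3 was left out, 8 collagens rose and 6 fell (20.5% and 15.4% of those tested), where 11.9% and 14.2% of all genes did, and the median was 0.78. Leaving out wild type library 2 or 3 also lowered the number that rose, to 7 (5.72% of all genes) and 10 (6.53% of all genes). In 10 genes the call held in each of the 6 fits that left out 1 library: Col4a1, Col4a2 and Col4a5, which fell, and Col2a1, Col9a1, Col9a2, Col13a1, Col20a1, Col23a1 and Col25a1, which rose.

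The remaining 5 members had too few counts to test: Col10a1 had no count in any library, and Col6a4, Col6a5, Col19a1 and Col28a1 reached at most 0.668 CPM. A count of 0 allows a level of up to 0.0882 to 0.303 CPM on the TMM-scaled library sizes, which covers counting error only. In bulk RNA, fewer cells of a type and less RNA per cell cannot be told apart, which applies to every difference below.

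**Figure D1:**
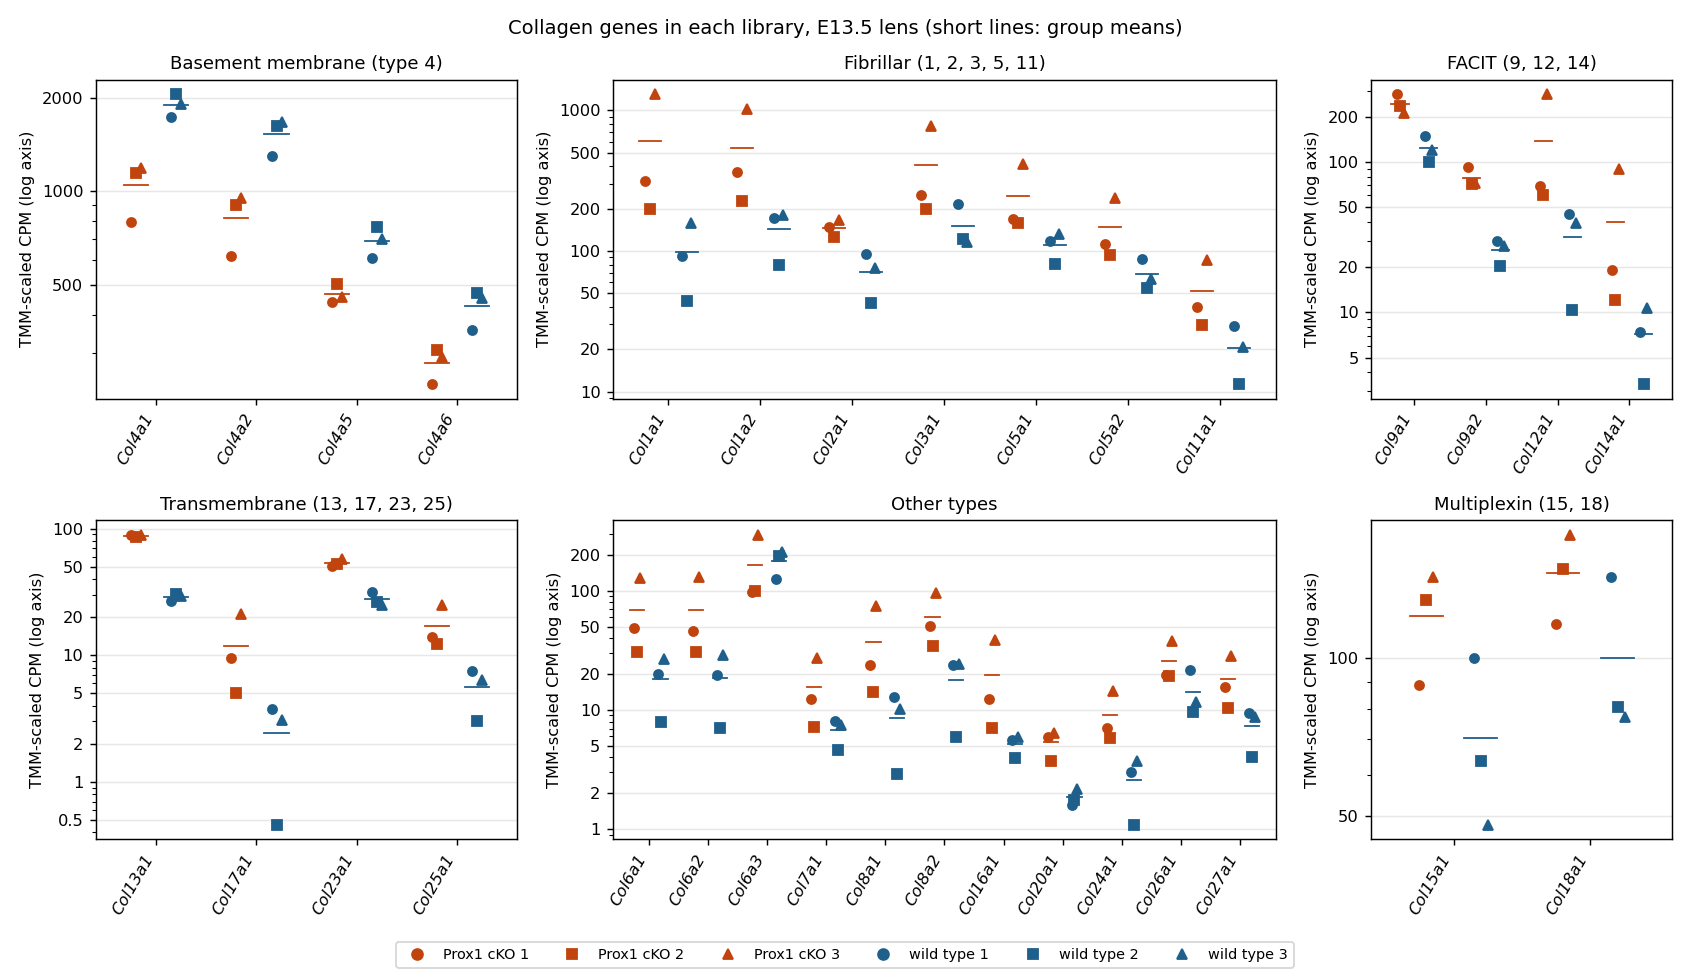
TMM-scaled CPM on log axes for the 32 collagen genes whose higher group averaged 10 CPM or more, or with a called change of at least 2-fold, in panels by class, with 3 Prox1 cKO libraries in orange, 3 wild type libraries in blue, and short lines for group means. The 4 type IV genes lie lower in every Prox1 cKO library than in any wild type library, the 4 transmembrane genes lie higher, and knockout library 3 (orange triangle) is the highest knockout library in 27 of the 32 genes.

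The type IV genes that carry the lens collagen RNA fell together. Col4a1 and Col4a2 encode the alpha 1 and alpha 2 chains, which form the common type IV network of basement membranes. Col4a1 stood at 794, 1148 and 1187 CPM in the Prox1 cKO libraries, against 1729, 2053 and 1916 CPM in the wild type libraries (log2 -0.87, SE 0.172, edgeR adjusted p = 0.00691). Col4a2 stood at 618, 899 and 948 CPM in Prox1 cKO lenses, against 1294, 1619 and 1674 CPM in wild type lenses (log2 -0.90, SE 0.185, edgeR adjusted p = 0.00811). Both genes were lower in all 3 Prox1 cKO libraries than in any wild type library, with knockout library 1 the lowest, and neither difference shrank without knockout library 3 (log2 -0.97 and -1.01).

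Col4a5 and Col4a6 encode chains that assemble with each other in the basement membranes of several tissues and lie back to back on chromosome X, with starts 1309 bases apart. Col4a5 stood at 438, 502 and 457 CPM in the Prox1 cKO libraries, against 607, 768 and 703 CPM in the wild type libraries (log2 -0.57, SE 0.122, edgeR adjusted p = 0.00951). Col4a6 stood at 239, 309 and 293 CPM in Prox1 cKO lenses, against 356, 469 and 452 CPM in wild type lenses (log2 -0.60, SE 0.144, edgeR adjusted p = 0.0146). The groups did not overlap in either gene, but the Col4a6 call did not survive removal of wild type library 2 or 3, with an adjusted p of up to 0.0625. Scaled by library totals alone, which moves the median of all genes to a log2 difference of 0.39, Col4a5 and Col4a6 had log2 differences of -0.22 and -0.25 and were not called, while Col4a1 and Col4a2 were still called (-0.52 and -0.55). That scaling called 38.0% of all genes higher and 6.62% lower, and 30 collagens higher and 2 lower.

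Col4a3 and Col4a4, whose chains belong to the type IV network of the kidney filter, were low and were not called. Col4a3 stayed at 0.2505 to 1.82 CPM in Prox1 cKO libraries and 0.531 to 1.21 CPM in wild type libraries, and 5.65% of its exon bases lie opposite another annotated gene, whose reads cannot be separated from its own. Col4a4 had 1.59, 1.00 and 12.4 CPM in the Prox1 cKO libraries, against 0.966, 0.744 and 0.864 CPM in the wild type libraries (log2 2.45, SE 0.888, edgeR adjusted p = 0.0633), with knockout library 3 far above the other 5 libraries. Over the 6 type IV genes, 4 fell and none rose by edgeR, DESeq2 or limma-voom, and 1, Col4a4, was higher at an unadjusted p under 0.05. The 4 are 66.7% of the class, where 16.8% of all genes fell by edgeR. The same 4 fell without knockout library 3, where 14.2% of all genes did. The median log2 difference of the 6 was -0.59. The summed type IV level was 2091, 2859 and 2899 CPM in the Prox1 cKO libraries, against 3988, 4909.8 and 4746 CPM in the wild type libraries, a ratio of group means of 0.575. Most lens markers were lower in the same libraries, although Pax6 of that list rose. Among those lower was Foxe3 of the lens epithelium, which secretes most of the capsule (80.8, 74.1 and 49.7 CPM in Prox1 cKO libraries and 97.98, 99.4 and 118 CPM in wild type libraries). Foxe3 was the highest in knockout library 1, where the type IV sum was the lowest among knockout libraries. The summed lens markers, at 21819.6, 21876 and 24079 CPM, instead had the order of the type IV sum there, with libraries 1 and 2 nearly equal. In wild type libraries the summed lens markers were 95689, 167156 and 177457 CPM. Foxe3, the lens marker sum and the type IV sum were all lowest in wild type library 1, and the type IV sum alone was highest in library 2. The part of the lens markers in the type IV result was not tested.

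Per feature length, in the deposited RPKM that are scaled by library totals, type IV genes led the collagens of the wild type lens, where mean RPKM was 246 for Col4a1, 203 for Col4a2, 90.8 for Col4a5 and 46.9 for Col4a6, followed by Col9a1 at 21.9. Type IV held 45.1, 57.6 and 35.1% of the summed collagen RPKM in the Prox1 cKO libraries, against 72.8, 84.1 and 77.9% in the wild type libraries. Fibrillar genes held 24.3, 16.9 and 39.2% in Prox1 cKO libraries, against 11.6, 5.80 and 9.94% in wild type libraries. The type IV share was lower, and the fibrillar share higher, in every Prox1 cKO library than in any wild type library. In Prox1 cKO libraries 1 and 2 the RPKM order still began with Col4a1, Col4a2 and Col4a5, whereas Col1a1 ranked first in library 3.

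All 4 transmembrane collagen genes rose, where 15.9% of all genes did, and 3 of the 4 calls did not depend on any single library. Without knockout library 3, 3 of the 4 rose (75%, where 11.9% of all genes did). The median log2 difference of the 4 was 1.59. Col13a1 encodes type XIII collagen, which sits at adhesion sites and at the neuromuscular junction. Its level was 89.05, 86.4 and 88.9 CPM in the Prox1 cKO libraries, against 26.8, 30.6 and 29.5 CPM in the wild type libraries. The libraries of each group lay within a few CPM of each other and the groups were far apart (log2 1.61, SE 0.0906, edgeR adjusted p = 4.51e-05). Col23a1, a transmembrane collagen of epithelial cell surfaces, stood at 50.8, 52.6 and 57.19 CPM in Prox1 cKO lenses, against 31.4, 26.5 and 24.9 CPM in wild type lenses (log2 0.95, SE 0.116, edgeR adjusted p = 0.000728). Knockout library 3 was the highest by only a little, and the groups did not overlap.

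Col25a1 encodes a collagen that motor nerve growth to muscle requires in mice. Its level was 13.96, 12.3 and 24.7 CPM in Prox1 cKO libraries, against 7.53, 3.03 and 6.39 CPM in wild type libraries (log2 1.57, SE 0.364, edgeR adjusted p = 0.0134). Col17a1, a component of the hemidesmosomes that anchor skin and corneal epithelium, stood at 9.44, 5.01 and 21.3 CPM in the Prox1 cKO libraries, against 3.77, 0.458 and 3.11 CPM in the wild type libraries (log2 2.25, SE 0.675, edgeR adjusted p = 0.0346). Both genes were highest in knockout library 3 and lowest in wild type library 2. Without knockout library 3, Col25a1 was still called (log2 1.21, edgeR adjusted p = 0.0319) and Col17a1 was not (log2 1.58, edgeR adjusted p = 0.0954). The 6 tested markers of surface ectoderm, the tissue that forms corneal epithelium, also all rose, where 15.9% of all genes did. Without knockout library 3, 3 of them rose (50%), where 11.9% of all genes did. The sum of the list was 70.6, 39.2 and 133 CPM in Prox1 cKO libraries and 28.7, 9.45 and 20.1 CPM in wild type libraries. Its keratin Krt5 was at 23.1, 11.02 and 57.29 CPM in Prox1 cKO libraries and 8.79, 1.83 and 6.85 CPM in wild type libraries, the same library order within each group as Col17a1. Trp63 and Krt18 of the list also had that order, whereas Krt8, Krt14 and Krt15 did not. The part of such cells in the result was not tested.

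Among the FACIT genes, both of the abundant type IX collagen chains rose. Of 5 FACIT genes 4 were called higher (80%, where 15.9% of all genes were), and the median log2 difference of the 5 was 1.61. Without knockout library 3, 2 were called higher (40%, where 11.9% of all genes were). Type IX collagen decorates the type II fibrils of cartilage and vitreous. Col9a1 stood at 283, 237 and 212 CPM in the Prox1 cKO libraries, against 149.7, 101 and 121 CPM in the wild type libraries (log2 0.98, SE 0.164, edgeR adjusted p = 0.00317). Col9a2 stood at 92.3, 71.8 and 72.8 CPM in Prox1 cKO lenses, against 29.9, 20.5 and 27.5 CPM in wild type lenses (log2 1.61, SE 0.163, edgeR adjusted p = 0.000312). In contrast to most collagens, knockout library 1 and not library 3 was the highest in both genes, and the groups did not overlap. The summed level of 10 neural retina markers, 9 of them tested, had the same highest library in each group, at 578, 385 and 369 CPM in Prox1 cKO libraries and 376, 253 and 259 CPM in wild type libraries. Of the 9 tested, 2 rose, and the part of retinal cells in the type IX values was not tested. RefSeq gives Col9a1 a second start site 17593 bases from the first, and counts per gene do not show which was used. Col9a3, the chain that completes the type IX molecule, was low, at 3.79, 2.00 and 10.3 CPM in Prox1 cKO libraries and 1.69, 1.72 and 2.30 CPM in wild type libraries, and was not called (log2 1.46, SE 0.529, edgeR adjusted p = 0.0640); 6.07% of its exon bases lie opposite exons of Tcfl5.

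Col12a1 and Col14a1 encode FACIT collagens of dense connective tissue, bound to type I fibrils. Col12a1 stood at 69.9, 60.5 and 283 CPM in the Prox1 cKO libraries, against 45.2, 10.4 and 39.6 CPM in the wild type libraries (log2 2.10, SE 0.679, edgeR adjusted p = 0.0443). For Col14a1 the values were 19.1, 12.02 and 89.5 CPM in Prox1 cKO lenses and 7.39, 3.32 and 10.7 CPM in wild type lenses (log2 2.47, SE 0.737, edgeR adjusted p = 0.0338). Knockout library 3 was several times as high as either other knockout library in both genes. Without it neither was called (adjusted p = 0.144 and 0.0775, edgeR), whereas Col9a1 and Col9a2 were (adjusted p = 0.00431 and 0.000964, edgeR).

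Of the 9 fibrillar genes, 6 rose, and only Col2a1 kept its call without knockout library 3. The 6 are 66.7% of the class, where 15.9% of all genes rose. Without knockout library 3 the share was 11.1%, where 11.9% of all genes rose, so that count does not set the class apart. The median log2 difference of the 9 was 1.16. Col2a1 encodes type II collagen, the main fibril of cartilage and vitreous. It stood at 148, 126 and 166 CPM in the Prox1 cKO libraries, against 95.5, 42.8 and 76.05 CPM in the wild type libraries (log2 1.04, SE 0.254, edgeR adjusted p = 0.0165). The 3 knockout libraries lay close together for this gene, and the lowest of them was above the highest wild type library. The difference was about as large without knockout library 3 (log2 0.94, edgeR adjusted p = 0.0433).

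Col1a1 and Col1a2 encode the chains of type I collagen, the main fibril of sclera, cornea and dermis. Col1a1 stood at 313, 199 and 1305 CPM in the Prox1 cKO libraries, against 92.5, 43.7 and 159 CPM in the wild type libraries (log2 2.62, SE 0.722, edgeR adjusted p = 0.0256). Col1a2 stood at 364, 228 and 1018 CPM in Prox1 cKO lenses, against 171, 78.9 and 182 CPM in wild type lenses (log2 1.90, SE 0.535, edgeR adjusted p = 0.0277). The groups did not overlap, but knockout library 3 was 6.55 times knockout library 2 in Col1a1, and wild type library 3 was 3.64 times wild type library 2. Without knockout library 3 the differences were smaller and not called (Col1a1 log2 1.38, edgeR adjusted p = 0.0560, and Col1a2 log2 1.04, edgeR adjusted p = 0.0576).

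Col5a1 and Col5a2 encode type V collagen, which starts and limits type I fibrils. Col5a1 stood at 169, 157 and 414 CPM in the Prox1 cKO libraries, against 118, 80.7 and 132 CPM in the wild type libraries (log2 1.16, SE 0.364, edgeR adjusted p = 0.0401). Col5a2 stood at 113, 93.3 and 240.1 CPM in Prox1 cKO lenses, against 88.1, 54.1 and 63.4 CPM in wild type lenses (log2 1.11, SE 0.339, edgeR adjusted p = 0.0365). Col11a1, whose chain plays the same part in type II fibrils, stood at 40.2, 29.6 and 86.4 CPM in the Prox1 cKO libraries, against 29.3, 11.3 and 20.7 CPM in the wild type libraries (log2 1.33, SE 0.431, edgeR adjusted p = 0.0443). In each of the 3 genes the lowest Prox1 cKO library was above the highest wild type library, although by a small margin in Col5a2 and Col11a1. Col3a1, which accompanies type I in soft tissue, had 251, 199.9 and 771 CPM in Prox1 cKO libraries and 216, 121 and 116 CPM in wild type libraries and was not called (log2 1.43, SE 0.490, edgeR adjusted p = 0.0537), and its groups overlapped. Col5a3 and Col11a2 were below 7 CPM in every library and were not called.

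The summed fibrillar level was 1404, 1037 and 4008 CPM in the Prox1 cKO libraries, against 816, 437 and 754 CPM in the wild type libraries. The ratio of group means was 3.22, and 1.83 without knockout library 3. The summed level of all collagens did not separate the groups, at 4676, 4981 and 8964 CPM in Prox1 cKO libraries and 5607, 5938 and 6239 CPM in wild type libraries. None of the fibrillar, FACIT or transmembrane genes fell by edgeR, DESeq2 or limma-voom, and none was lower at an unadjusted p under 0.05.

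**Figure D2:**
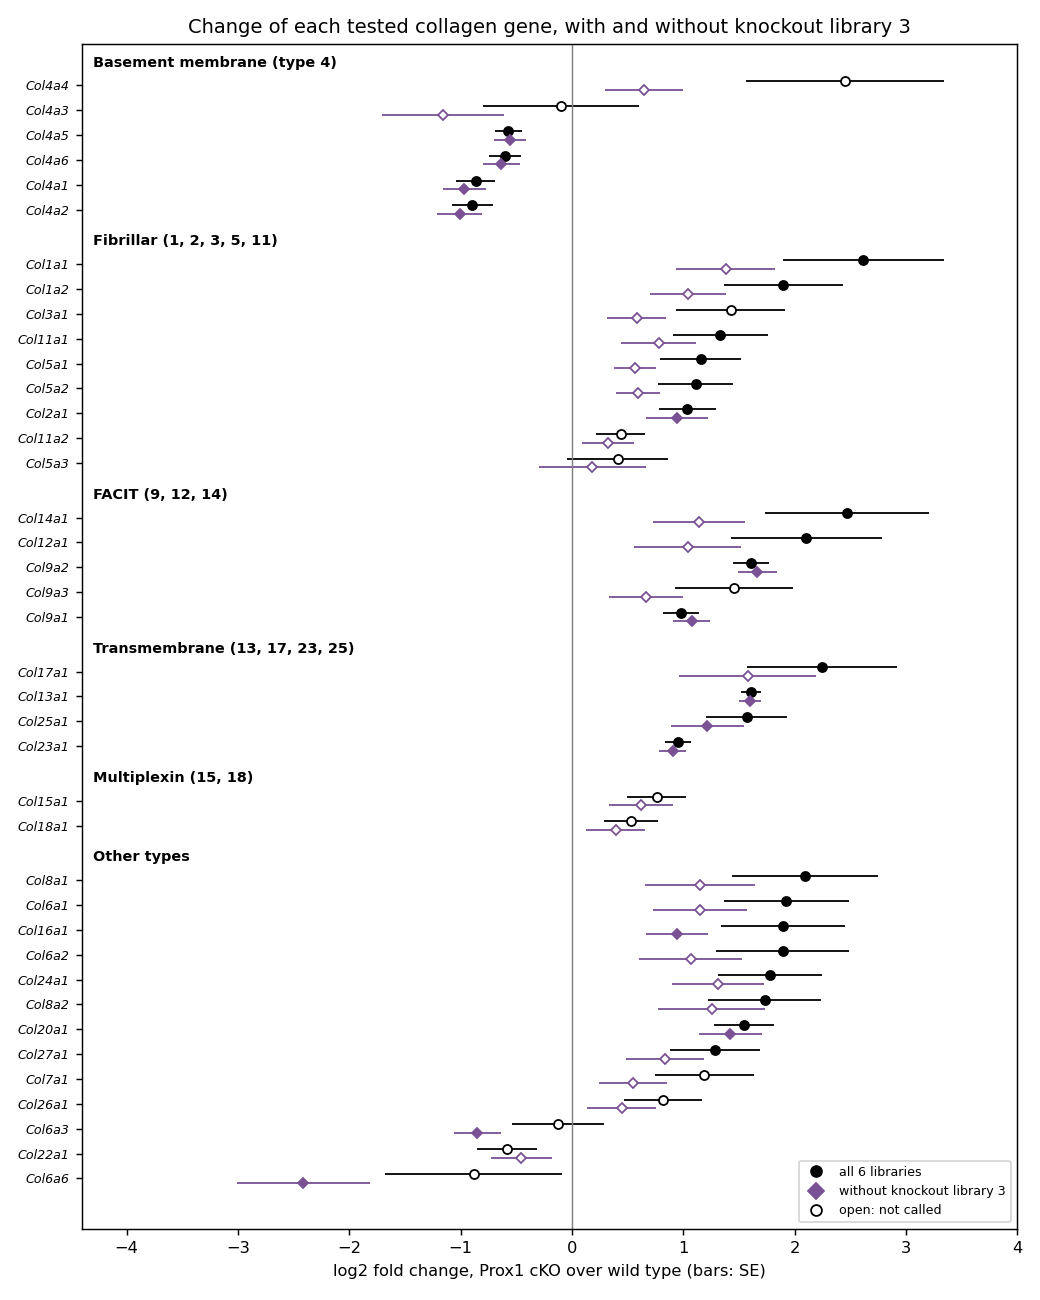
Log2 difference in level, Prox1 cKO over wild type, for the 39 collagen genes tested, with bars of 1 SE, in black for all 6 libraries and in purple without knockout library 3, filled where the edgeR adjusted p was under 0.05. The 4 called type IV differences change little without that library, whereas those of Col1a1, Col12a1 and Col14a1 are between 1.04 and 1.38 without it.

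Types XV and XVIII are collagens of vascular and epithelial basement membranes that carry sugar chains, and type XVIII is the source of endostatin. Col15a1 stood at 89.02, 129 and 142 CPM in the Prox1 cKO libraries, against 99.9, 63.6 and 48.2 CPM in the wild type libraries (log2 0.76, SE 0.266, edgeR adjusted p = 0.0569). Col18a1 stood at 116, 147 and 171 CPM in Prox1 cKO lenses, against 143, 80.6 and 77.4 CPM in wild type lenses (log2 0.53, SE 0.243, edgeR adjusted p = 0.125). Neither gene was called, and in both the groups overlapped, with wild type library 1 among the high libraries. Without wild type library 1, where 16.4% of all genes were higher, both were called higher (Col15a1 log2 1.06, edgeR adjusted p = 0.00921, and Col18a1 log2 0.83, edgeR adjusted p = 0.00818). DESeq2 called 1 of the 2 genes higher, limma-voom called neither, and 1 was higher at an unadjusted p under 0.05. Markers of vessel endothelium showed the same high wild type library: their sum was 431, 555 and 556 CPM in Prox1 cKO libraries and 489, 366 and 271 CPM in wild type libraries. Of the 9, 1 was called higher, 11.1% of the list, where 15.9% of all genes rose. The part of vessel cells in these values was not tested.

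Of the 18 genes of other types, 13 were tested and 8 rose, with a median log2 difference of 1.54. The 8 are 61.5% of those tested, where 15.9% of all genes rose. Without knockout library 3, 2 rose and 2 fell (15.4% each), where 11.9% of all genes rose and 14.2% fell. Type VI collagen makes the beaded filaments around cells. Col6a1 stood at 49.2, 30.6 and 129 CPM in the Prox1 cKO libraries, against 19.9, 7.90 and 26.6 CPM in the wild type libraries (log2 1.93, SE 0.560, edgeR adjusted p = 0.0307). Col6a2 stood at 46.04, 30.98 and 132 CPM in Prox1 cKO lenses, against 19.8, 7.04 and 28.8 CPM in wild type lenses (log2 1.89, SE 0.599, edgeR adjusted p = 0.0412). Both were highest in knockout library 3 and lowest, among all 6, in wild type library 2. Col6a3, whose chain joins both others in the standard type VI molecule, did not follow them: it stood at 98.04, 99.9 and 294 CPM in Prox1 cKO libraries, against 127, 196 and 213 CPM in wild type libraries (log2 -0.13, SE 0.411, edgeR adjusted p = 0.829). Without knockout library 3, Col6a3 was lower in the Prox1 cKO lens (log2 -0.85, edgeR adjusted p = 0.0229), and Col6a6, at no more than 2.48 CPM in any library, was also called lower (log2 -2.41, edgeR adjusted p = 0.0238). The Col6a3 difference had no stable sign, since it was 0.23 when scaled by library totals and 0.14 without knockout library 1.

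Type VIII collagen is the lattice of Descemet's membrane under the cornea and of vessel walls. Col8a1 stood at 23.7, 14.3 and 74.6 CPM in the Prox1 cKO libraries, against 12.8, 2.92 and 10.1 CPM in the wild type libraries (log2 2.10, SE 0.657, edgeR adjusted p = 0.0400). Col8a2 stood at 51.2, 34.3 and 95.01 CPM in Prox1 cKO lenses, against 23.7, 5.96 and 24.4 CPM in wild type lenses (log2 1.73, SE 0.511, edgeR adjusted p = 0.0326). The groups did not overlap, knockout library 3 was the highest and wild type library 2 the lowest in both genes, and neither call held without knockout library 3.

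The other called genes were present at lower levels. Col20a1, a FACIT-like collagen of little known role, stood at 5.94, 3.76 and 6.46 CPM in the Prox1 cKO libraries, against 1.59, 1.78 and 2.19 CPM in the wild type libraries (log2 1.54, SE 0.270, edgeR adjusted p = 0.00394), and its call held whichever library was left out. Col16a1, a fibril-associated collagen, stood at 12.4, 7.10 and 39.03 CPM in Prox1 cKO lenses, against 5.55, 3.95 and 5.93 CPM in wild type lenses (log2 1.90, SE 0.554, edgeR adjusted p = 0.0314). Col24a1, a fibrillar collagen of developing cornea and bone, stood at 7.06, 5.84 and 14.4 CPM in the Prox1 cKO libraries, against 2.99, 1.09 and 3.74 CPM in the wild type libraries (log2 1.78, SE 0.467, edgeR adjusted p = 0.0214). In Col20a1, Col16a1 and Col24a1 every Prox1 cKO library exceeded every wild type library. Col27a1, a fibrillar collagen of cartilage, stood at 15.7, 10.4 and 28.6 CPM in the Prox1 cKO libraries, against 9.51, 4.01 and 8.69 CPM in the wild type libraries (log2 1.29, SE 0.407, edgeR adjusted p = 0.0413). Its lowest Prox1 cKO library was only slightly above the highest wild type library. Col7a1, the anchoring fibril collagen under skin and corneal epithelium, had 12.4, 7.18 and 27.5 CPM in Prox1 cKO libraries and 8.16, 4.64 and 7.54 CPM in wild type libraries (log2 1.19, SE 0.444, edgeR adjusted p = 0.0695). Col26a1 had 19.7, 19.3 and 37.6 CPM in Prox1 cKO libraries and 21.5, 9.56 and 11.7 CPM in wild type libraries (log2 0.82, SE 0.349, edgeR adjusted p = 0.102). Neither was called, and their groups overlapped. Col22a1, a collagen of tissue junctions, stayed below 5 CPM in every library and was not called (log2 -0.58, SE 0.269, edgeR adjusted p = 0.125). Every Prox1 cKO library lay below every wild type library in Col22a1, by a very small margin.

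Ratios between collagen chains of the same type separated the groups for some pairs and overlapped for others. They were taken from the deposited RPKM, which divide by length. Col4a1 over Col4a2 was 1.25, 1.24 and 1.22 in the Prox1 cKO libraries, against 1.297, 1.23 and 1.11 in the wild type libraries. Col4a5 over Col4a6 was 2.18, 1.93 and 1.85 in Prox1 cKO libraries, against 2.02, 1.94 and 1.84 in wild type libraries. In both back-to-back pairs the groups overlapped, while Col4a5 over Col4a1, a ratio across the 2 pairs, was higher in every Prox1 cKO library (0.561, 0.444 and 0.391) than in any wild type library (0.356, 0.380 and 0.372). Col9a1 over Col9a2 was 1.87, 2.02 and 1.78 in Prox1 cKO libraries, against 3.05, 3.00 and 2.68 in wild type libraries, so that every Prox1 cKO library had more Col9a2 for its Col9a1 than any wild type library. Col6a1 over Col6a2 was 2.03, 1.88 and 1.86 in Prox1 cKO libraries and 1.91, 2.13 and 1.75 in wild type libraries, again overlapping. Col6a3 over Col6a1 was 0.729, 1.19 and 0.838 in Prox1 cKO libraries, all below the 2.33, 9.08 and 2.93 of the wild type libraries. With 3 libraries against 3 an exact permutation test cannot go below p = 0.10, so a ratio without overlap is given as a description. The ratios of Col1a1 over Col1a2, Col5a1 over Col5a2 and Col8a2 over Col8a1 overlapped between the groups.

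**Figure D3:**
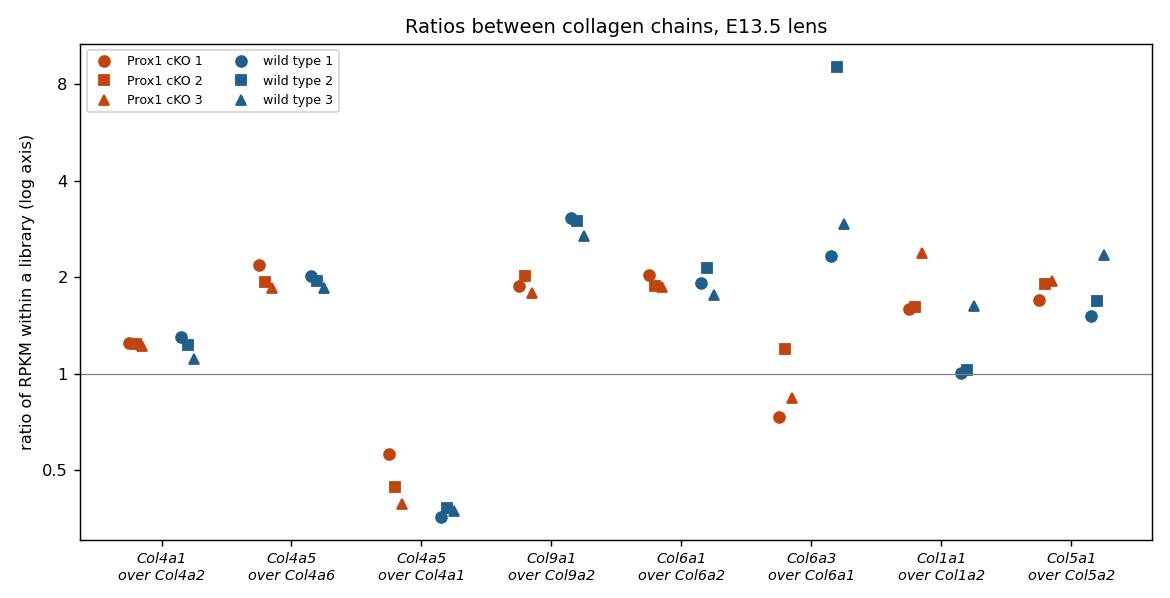
Ratios of deposited RPKM between collagen chains of the same type, on a log axis, with 1 symbol per library and Prox1 cKO libraries (orange) to the left of wild type libraries (blue). Col9a1 over Col9a2 (1.78 to 2.02 in Prox1 cKO and 2.68 to 3.05 in wild type) and Col6a3 over Col6a1 separate the groups, whereas Col4a1 over Col4a2 and Col6a1 over Col6a2 overlap.

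The collagens that rose differed in whether the call depended on knockout library 3. For 14 genes (Col1a1, Col1a2, Col5a1, Col5a2, Col6a1, Col6a2, Col8a1, Col8a2, Col11a1, Col12a1, Col14a1, Col17a1, Col24a1 and Col27a1) the call was lost without it, and library 3 was 2.19 to 5.75 times the mean of knockout libraries 1 and 2, with a median of 3.08. Their log2 differences without it were still positive, from 0.57 to 1.58, with edgeR adjusted p from 0.0524 to 0.144. All 14 also lost the call when wild type library 2 was left out instead, with edgeR adjusted p from 0.0621 to 0.158. Loss of these calls was thus not particular to knockout library 3. For the 8 genes that kept the call without knockout library 3 (Col2a1, Col9a1, Col9a2, Col13a1, Col16a1, Col20a1, Col23a1 and Col25a1) the ratio of library 3 to that mean was 0.816 to 4.01, with a median of 1.16. The genes were sorted by the fit without library 3. A higher ratio among the calls lost follows largely from that sorting, so the ratios only describe the genes. The ranges overlapped through Col16a1, which had the highest ratio of the 8 and a smaller log2 difference without library 3 (log2 0.95, edgeR adjusted p = 0.0432, against log2 1.90 with all libraries). Col16a1 was not called without wild type library 1, 2 or 3 (edgeR adjusted p = 0.063, 0.122 and 0.079), nor by limma-voom (adjusted p = 0.075). Among the 32 genes shown by library, wild type library 2 was the lowest wild type library in 21 and knockout library 2 the lowest knockout library in 23.

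Markers of tissues around the lens differed between the groups in the same libraries. Of 11 tested markers of periocular mesenchyme, the source of sclera and corneal stroma, 4 rose, and the sum of the list was 376, 268 and 751 CPM in the Prox1 cKO libraries, against 240.5, 114 and 185 CPM in the wild type libraries. Foxc2 had no count and Tcf21 was at most 0.0835 CPM, while Prrx1 reached 33.98, 27.9 and 87.95 CPM in Prox1 cKO libraries and 21.1, 9.16 and 16.8 CPM in wild type libraries. The list shares Lum, Dcn and Postn with the fibril-associated genes described below. Lum, Dcn, Postn and Prrx1 were the 4 that rose. Prrx2 had a lower mean in the Prox1 cKO libraries and was not called (log2 -0.43, edgeR adjusted p = 0.183). Of 7 pigment cell markers, 6 rose. That is 85.7%, and for the tested mesenchyme markers the share was 36.4%, where 15.9% of all genes rose. The pigment cell sum was 367, 268 and 739.5 CPM in Prox1 cKO libraries, against 193, 82.2 and 169.5 CPM in wild type libraries. Both sums were highest in knockout library 3 and lowest in wild type library 2. When that knockout library was left out, 11.9% of all genes rose and 14.2% fell. In that fit 1 mesenchyme marker and 5 pigment cell markers rose, and 1 pigment cell marker fell. Their part in the rise of fibrillar, FACIT and other collagens was not tested.

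**Figure D4:**
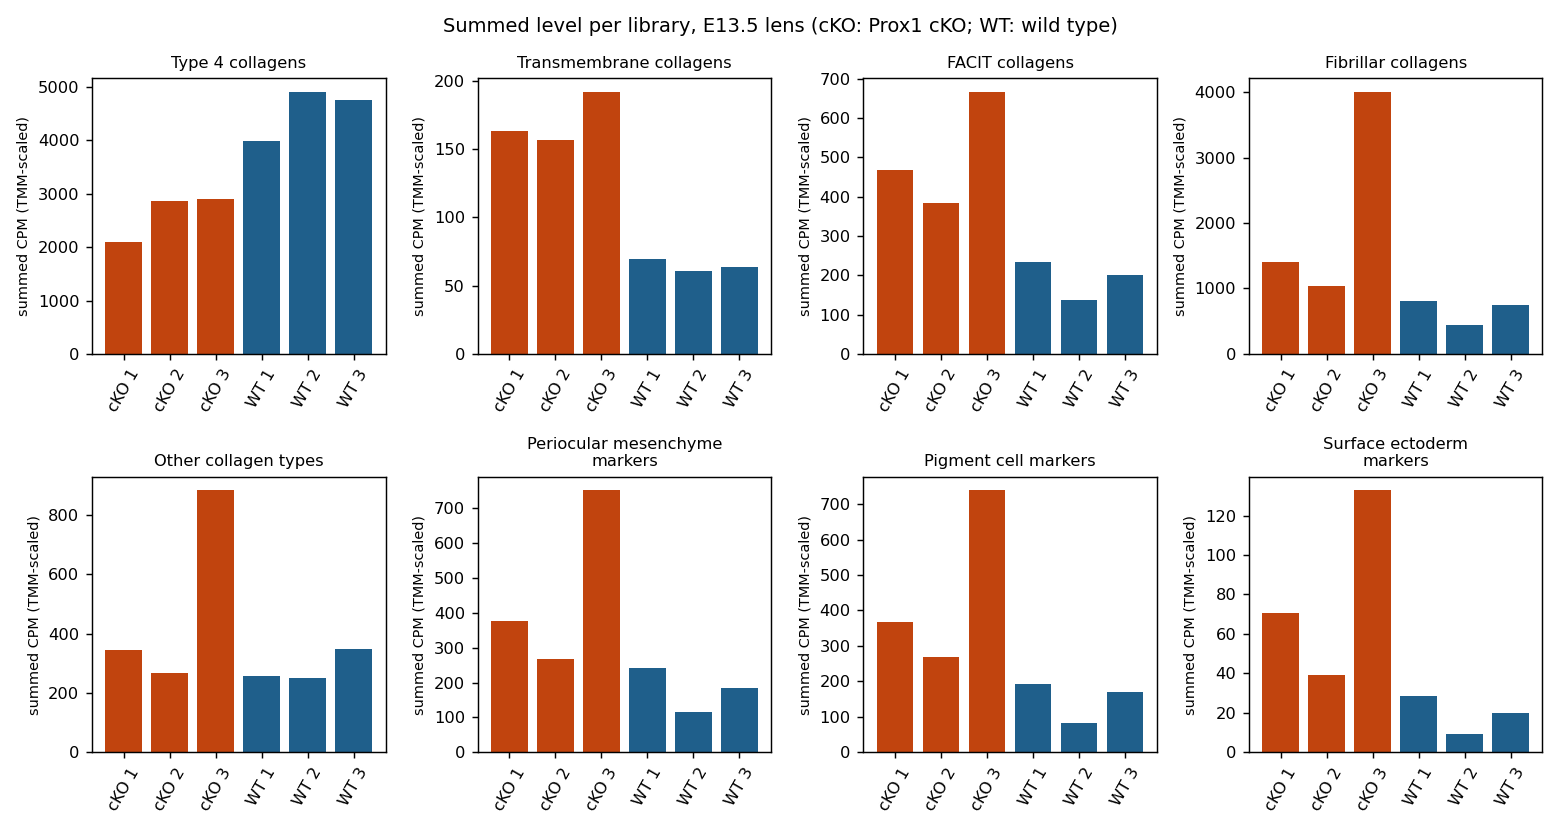
Summed TMM-scaled CPM per library, as bars from 0, for 5 collagen classes and 3 marker lists, with Prox1 cKO libraries in orange to the left of wild type libraries in blue. The type IV sum is lower, and the fibrillar, FACIT and transmembrane sums are higher, in every Prox1 cKO library than in any wild type library, and knockout library 3 is the tallest bar for fibrillar, FACIT, transmembrane and other collagens (4008, 668, 192 and 883 CPM) and for all 3 marker lists.

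The other marker lists gave the following counts. Of 4 tested markers of cartilage, sclera and bone precursors, Sox9 alone rose, from a list in which Acan, Matn1, Comp, Scx and Sp7 were at or below 0.911 CPM in every library. Sox9, a transcription factor that switches on type II, IX and XI collagen genes in cartilage, stood at 38.6, 45.7 and 59.1 CPM in Prox1 cKO libraries, against 11.2, 10.4 and 10.8 CPM in wild type libraries (log2 2.14, SE 0.165, edgeR adjusted p = 0.000127), and its part in the rise of Col2a1, Col9a1 and Col9a2 was not tested. Pericyte markers rose in 3 of 6 (171 to 270.3 CPM summed in Prox1 cKO libraries and 119 to 150.0 CPM in wild type libraries). Erythroid genes rose in 3 of 8 (1402 to 2237 CPM in Prox1 cKO and 777 to 2590.5 CPM in wild type libraries). Of these, 1 pericyte marker and 1 erythroid gene rose without knockout library 3 (16.7% and 12.5%, where 11.9% of all genes did). The shares higher were 25% of the tested cartilage markers, 50% of pericyte markers, 37.5% of erythroid genes and 22.2% of 9 neural retina markers. Of all genes, 15.9% were higher. Macrophage markers, at 62.6 to 88.3 CPM in Prox1 cKO libraries and 32.8 to 72.4 CPM in wild type libraries, had 0 of 7 called by edgeR or limma-voom, 1 higher by DESeq2 and 1 higher at an unadjusted p under 0.05. Skeletal muscle markers had 0 of 4 called by edgeR, DESeq2 or limma-voom and 0 at an unadjusted p under 0.05, with a summed 2.91, 5.43 and 38.7 CPM in Prox1 cKO libraries, highest in knockout library 3, and 2.80, 4.87 and 14.5 CPM in wild type libraries.

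The machinery that makes collagen was examined as 26 tested genes for the enzymes and chaperones of the secretory pathway, of which 10 rose and 2 fell. These are 38.5% and 7.69% of the list, where 15.9% of all genes rose and 16.8% fell. The median log2 difference was 0.23. Serpinh1, the collagen chaperone HSP47, stood at 1065, 866 and 870.3 CPM in the Prox1 cKO libraries, against 583, 513 and 546 CPM in the wild type libraries (log2 0.77, edgeR adjusted p = 0.00271). Creb3l2, a transcription factor of the secretory pathway, stood at 137, 234 and 172 CPM in Prox1 cKO lenses, against 76.5, 62.7 and 65.2 CPM in wild type lenses (log2 1.41, edgeR adjusted p = 0.00112). Neither gene followed knockout library 3. The prolyl 3-hydroxylases Leprel2 and Leprel1 also rose (log2 1.09, edgeR adjusted p = 0.00569, and log2 0.83, edgeR adjusted p = 0.00223), as did the prolyl isomerase Fkbp10 (log2 0.85, edgeR adjusted p = 0.0167). P4ha1, a catalytic subunit of the prolyl 4-hydroxylase that stabilises the helix, fell to 262, 225 and 258 CPM in Prox1 cKO lenses, against 357, 469 and 473 CPM in wild type lenses (log2 -0.80, edgeR adjusted p = 0.00320). Without knockout library 3 the counts were 9 higher and 1 lower (34.6% and 3.85%, where 11.9% and 14.2% of all genes were called).

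Of 14 tested genes that trim and cross-link collagen outside the cell, 4 rose by edgeR and none fell, and none was lower by DESeq2, limma-voom or an unadjusted p under 0.05. The 4 are 28.6% of the list, where 15.9% of all genes rose. Lox, the lysyl oxidase that cross-links fibrils, stood at 25.1, 15.9 and 132 CPM in the Prox1 cKO libraries, against 11.3, 6.70 and 14.2 CPM in the wild type libraries (log2 2.41, edgeR adjusted p = 0.0360). Its values followed knockout library 3, as those of Col1a1 did. Loxl2, an enzyme that cross-links type IV collagen, also rose (log2 0.83, edgeR adjusted p = 0.0452), and so did Loxl3 (log2 0.61, edgeR adjusted p = 0.0137), with no overlap between the groups in either gene. Loxl3 alone rose without knockout library 3, 7.14% of the list against 11.9% of all genes.

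Among 11 tested collagen receptors, 3 rose and 2 fell, 27.3% and 18.2% of the list, where 15.9% of all genes rose and 16.8% fell, so nothing particular to receptors is read from the counts. Mrc2, an endocytic receptor that clears collagen, stood at 117, 129 and 139 CPM in the Prox1 cKO libraries, against 35.3, 15.5 and 20.7 CPM in the wild type libraries (log2 2.42, edgeR adjusted p = 0.000430). Ddr2, a tyrosine kinase receptor for fibrillar collagen, rose as well (log2 1.47, edgeR adjusted p = 0.0304) but was not called without knockout library 3 (log2 0.83, edgeR adjusted p = 0.0576), which left Mrc2 as the 1 receptor that rose. Itga2, the alpha chain of a collagen-binding integrin, fell to 3.65, 6.43 and 9.08 CPM in Prox1 cKO lenses, against 24.8, 30.1 and 26.6 CPM in wild type lenses (log2 -2.15, edgeR adjusted p = 0.00116), and its partner Itgb1 also fell (log2 -0.51, edgeR adjusted p = 0.0131). Of 15 tested genes whose proteins bind or organise fibrils, 9 rose and 1 fell. These are 60% and 6.67% of the list, where 15.9% of all genes rose and 16.8% fell. Those that rose included the leucine-rich proteoglycans Kera (log2 2.40, edgeR adjusted p = 0.0372), Dcn (log2 1.91, edgeR adjusted p = 0.0214), Lum (log2 1.56, edgeR adjusted p = 0.0244) and Optc (log2 1.35, edgeR adjusted p = 0.00935), and the matrix protein Postn (log2 1.97, edgeR adjusted p = 0.0341). The groups overlapped in Kera and not in the others named. Ogn, a proteoglycan of the same family, fell to 4.12, 4.01 and 11.1 CPM in Prox1 cKO lenses, against 23.1, 34.6 and 32.99 CPM in wild type lenses (log2 -2.30, edgeR adjusted p = 0.00274). Without knockout library 3, 3 genes of this list rose and 1 fell (20.00% and 6.67%, where 11.9% and 14.2% of all genes did). Of the 5 named above Optc alone was still called higher.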

How the data were processed

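Polyadenylated RNA from 3 Prox1 cKO and 3 wild type pools of 30 lenses was measured. Each deposited table lists, per the file headers, raw counts, CPM and RPKM values for 41128 features. The deposited CPM equals the count over the library total within a tolerance of 1e-06, without TMM factors, and the RPKM made by the authors divide that CPM by a feature length that the tables do not list. Per the submitters' processing notes, the build was GRCm38 and edgeR was among the tools. Aligner, read counter and gene models were not given in the sources used here. Left out were 26 features whose CPM did not match their own count. None of them is a collagen gene.

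Counts were analysed in R 4.3.3 with the edgeR 4.0.16 quasi-likelihood test over all 6 libraries, with no covariate, TMM scaling, filterByExpr at a minimum count of 10, and Benjamini-Hochberg adjustment over all 14271 genes tested with a threshold of 0.05. The SE is the size of the log2 difference divided by the square root of the F statistic. The procedure was tested on simulated data. Alternatives were DESeq2 1.42.0, voom of limma 3.58.1, library totals, upper quartile scaling, no filter on low counts, a filter of 1 CPM in 3 libraries, a replicate block, and leaving out each library.

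Values in every library are given for members whose higher group averaged 10 CPM or more, or with a called change of at least 2-fold. From lists of collagen synthesis, processing, receptor and fibril-associated genes, up to 6 called members each were named by size of change among those whose higher group averaged 10 CPM or more. Krt5, Prrx1, Sox9, Foxe3, Pax6 and Cryaa were chosen from the marker lists after their values were seen. The members, the lists and the tests were chosen with earlier results of these data known. No p is given for sums, since members share their choice. Coordinates and exon overlaps come from GENCODE release 21 of the same build, and promoter windows from RefSeq.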

Additional observations from a re-analysis of the deposited data

How the results depend on the processing

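Counts of called genes moved with the scaling. Library totals without TMM, under which the median log2 difference of all genes was 0.39, against 0.04 with TMM, gave 2 collagens lower, 1 type IV gene higher and 2 lower, both types XV and XVIII (2) higher, 18 synthesis genes higher and 1 lower, 10 processing genes higher, and 5 receptors higher and 1 lower. Upper quartile scaling gave 1 synthesis gene lower. DESeq2 called 1 multiplexin and 5 receptors higher, and limma-voom 2 FACIT genes, 5 genes of other types and 2 processing genes higher. With no filter on low counts, 1 type IV gene, 1 multiplexin, 6 processing genes, 5 receptors and 13 fibril-associated genes were higher. The shares of all genes higher and lower were 38.0% and 6.62% with library totals, 16.2% and 17.7% with DESeq2, and 15.6% and 16.7% with limma-voom. No such share is given for upper quartile scaling, no filter, the replicate block or removal of knockout library 1 or 2. Counts from those fits cannot be set against all genes. Leaving out 1 library at a time gave 7 to 26 collagens higher, with 1 to 7 fibrillar, 0 to 1 type IV, 2 to 5 FACIT, 0 to 2 multiplexin and 1 to 9 genes of other types higher and 0 to 2 of other types lower. It gave 5 to 10 synthesis genes higher and 1 to 2 lower, 0 to 7 processing genes higher, 1 to 4 receptors higher and 1 to 2 lower, and 1 to 10 fibril-associated genes higher. The log2 ratio of the summed collagen level was 0.07, and between -0.30, without knockout library 3, and 0.23 when a library was left out. The uncalled Col4a3 had a log2 difference of -0.10, but 0.0070 with DESeq2 and 0.26 with library totals, and between -1.16 and 0.38 when a library was left out (0.38 and 0.29 without knockout libraries 1 and 2, and 0.36 without wild type library 3). The uncalled Col6a3 had -0.13, but 0.23 with library totals, and between -0.85 and 0.14 when a library was left out (0.14 and 0.13 without knockout libraries 1 and 2). The cause was not tested.

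Replicate numbers are shared by the groups, but same-numbered libraries deviated together with correlations of -0.03, 0.25 and 0.11, so the numbers were not taken to pair the libraries. Library 1 of the Prox1 cKO group did not correlate best with its own number, and libraries 2 and 3 did. With a replicate block, 23 collagens were higher and 4 lower, against 22 and 4 without it. At 9082219 to 28391662 counts per library, 5 members were too low to test.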
